A study of Mus musculus with 6 samples.

Results

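The ephrins and Eph receptors, the Slits and their Robo receptors, the netrins with Dcc and the Unc5 receptors, and the semaphorins with their plexin and neuropilin receptors were examined in 6 mouse lung tumour cell lines. The members were all genes whose symbol follows the names of these families, whatever their signal. They comprised 68 genes on 102 array probes, of 18749 genes with a symbol on the array. Of these, 58 could be tested, of which 1 was higher and 1 lower in SMC lines than in non-SMC lines. Robo2 rose and Ephb4 fell, whereas the other 56 did not pass the test. Robo2 was detected in no non-SMC line, and Ephb4 was near or below detection in the SMC lines. Each was kept for the test through the group where it was high. Among probes detected on all 6 arrays, no member was called.

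The lines were grown from tumours of C57BL/6J mice carrying Rb1 L/L and Trp53 L/L alleles, a model of small cell lung carcinoma in which both tumour suppressor genes can be deleted. The labels give 3 SMC lines and 3 non-SMC lines in 3 pairs (pair 1 is R716T2, pair 2 R1563 and pair 3 R1611), without spelling out the abbreviation. By their labels, pair 2 comes from a male and the others from females. Neither the mice's age nor the means of deleting the alleles is given in the sources used here. Each line was measured on 1 single-colour array, so a value is 1 culture. The p-values of the paired fit measure only how the SMC minus non-SMC difference spreads over these 3 pairs, with variance borrowed from all features. A signal is log2 of the background-subtracted intensity minus the 75th percentile of its array, so 0 is the level of that percentile. A difference is SMC minus non-SMC on the log2 scale, where 1 is a doubling. It is given with its standard error (SE) and the adjusted p of the paired limma fit over 19848 features, called below 0.05. A signal is called detected if the scanner software marked it well above background. The signal of one gene cannot be set against that of another, because each probe binds its target with its own efficiency.

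Axon guidance molecules steer growing nerve fibres by attracting or repelling the tip of the axon. Secreted Slits bind Robo receptors and mostly repel; netrins attract through Dcc and repel through Unc5 receptors. Ephrins are bound to the membrane and signal at contacts between cells, both forwards through Eph receptor kinases and back into the cell that carries the ephrin. Semaphorins signal through plexins, and most of the secreted class 3 semaphorins also need a neuropilin. Outside the nervous system the same molecules act in blood vessel growth, epithelial boundaries, cell migration and tumours.

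Between 64.1% and 68.5% of probes were detected on an array, and none was saturated. The 4 arrays of 1 slide were SMC pairs 1 and 2 and non-SMC pairs 2 and 3; SMC pair 3 and non-SMC pair 1 lay on slides of their own. In pairs 1 and 3 the group difference was therefore also a difference between slides. Neuroendocrine markers, which define small cell lung carcinoma, were detected for 13 of 13 genes in every SMC line, and for 10, 13 and 12 in the non-SMC lines of pairs 1 to 3. Their summed signal (on the linear scale, with the 75th percentile as 1) was 324 to 433 in SMC lines and 21.3 to 172 in non-SMC lines. Of the non-SMC lines, that of pair 2 was the highest, at 172. For 10 fibroblast markers the sum was 0.532 to 3.15 in SMC lines and 108 to 377 in non-SMC lines, with 5 or 6 and 9 or 10 genes detected. Lung epithelial markers summed to 188, 350 and 15.9 in the SMC lines of pairs 1 to 3, against 1.46, 361 and 338 in the non-SMC lines. The SMC line of pair 3 and the non-SMC line of pair 1 were thus low, so these markers differed in opposite directions in pairs 1 and 3. Leukocyte markers summed to 0.172 to 1.42 in SMC lines and 1.89 to 16.6 in non-SMC lines, with the highest value in pair 3. In each non-SMC line the largest part of this sum came from Cd14 (log2 signals 0.66, 1.96 and 3.54), whereas Ptprc was detected in 1 line of each group. Glial markers summed to 0.223 to 0.504 in SMC lines and 0.137 to 0.323 in non-SMC lines. In these bulk cultures, fewer cells of a type and less RNA per cell cannot be told apart. The part of these marker shifts in the results below was not tested.

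The differences of the members were larger at the median than those of all features, and went both ways. The median size of the difference was 2.01 over the 58 tested members, against 0.64 over all features. Among features detected on all 6 arrays it was 1.76 for 45 members and 0.52 for all. The members were chosen with earlier results of these data known, so this comparison is a description and was not tested. Signs were balanced, with 29 positive and 29 negative differences and a median of -0.07 (0.18 over all features). At an adjusted p under 0.05, 1 of 58 members was higher and 1 lower, where 0.156% and 3.03% of all features were. At an unadjusted p under 0.05, 17 were higher and 16 lower, against 14.9% and 11.8% of all features. Every SMC line lay above every non-SMC line for 15 members and below for 15 (25.9% each), against 22.8% and 15.4% of all features. By this measure the share above was near that of all features. The remaining 28 overlapped. Among the 45 members detected on all arrays the counts were 10 above and 11 below (22.2% and 24.4%), against 21.6% and 12.8% of features so detected. The other 13 were detected throughout 1 group only, which for 12 of them was the group with the higher mean. The exception was Sema3b, detected in every SMC line but lower on average there.

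**Figure D1:**
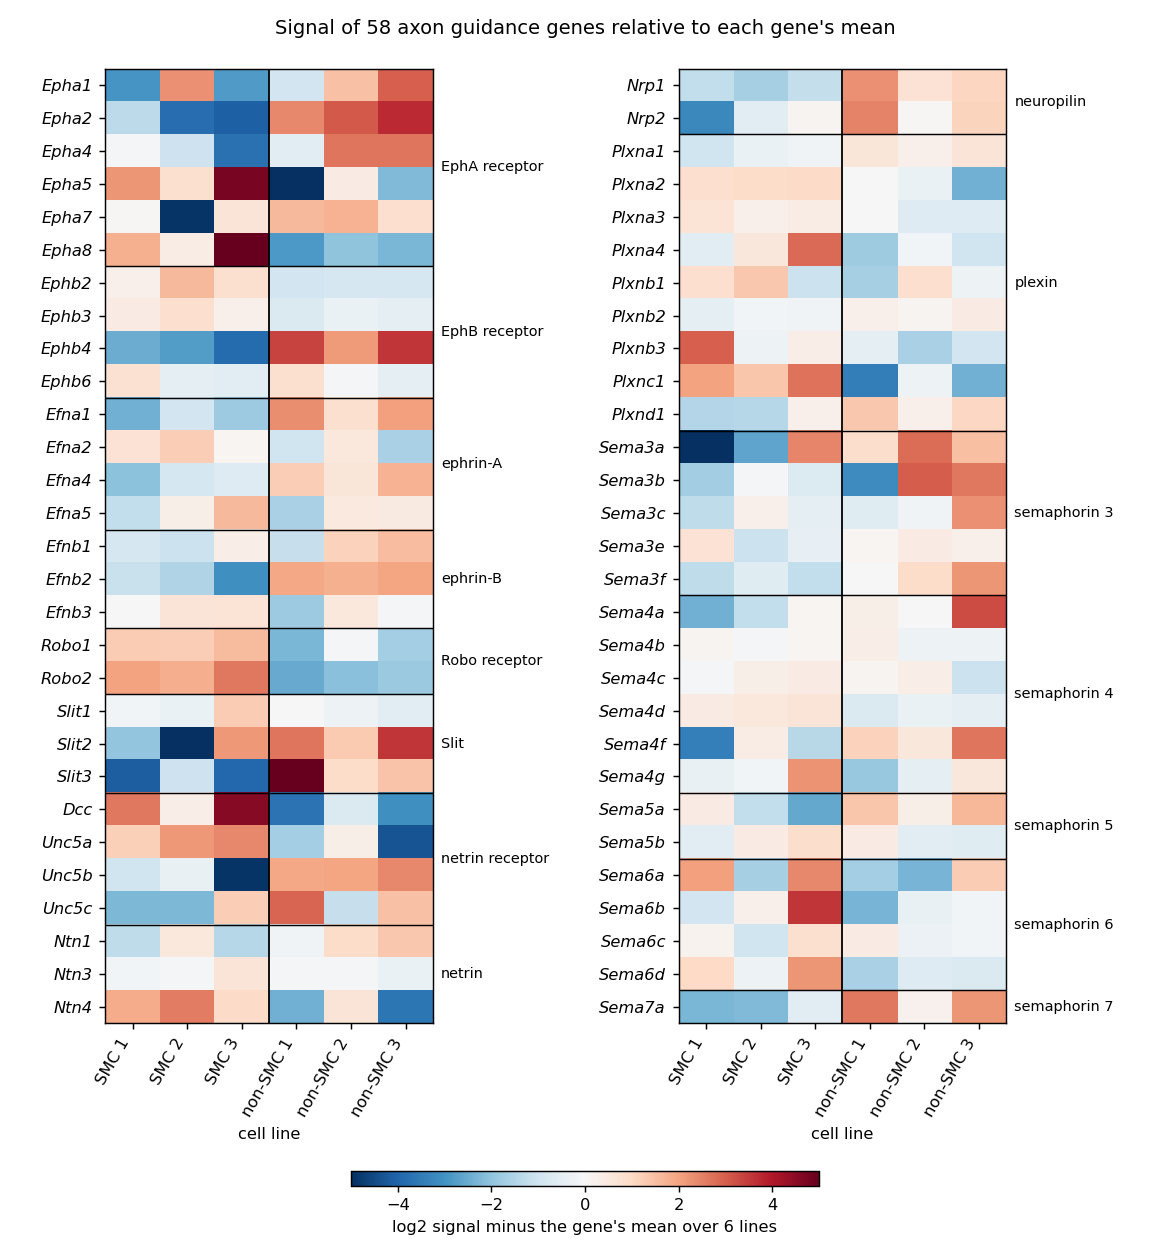
Signal of the 58 tested genes in each cell line, as log2 signal minus the gene's mean over the 6 lines, so that red is above and blue below that mean; SMC lines are left of the black line and non-SMC lines right of it, and the colour scale ends at 5, which 4 values exceed. Within most families some genes are red and others blue in the SMC lines, and the non-SMC line of pair 2 is often paler than its neighbours.

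Among members detected on all 6 arrays, 13 of 20 receptors did not overlap between the groups (7 higher and 6 lower in SMC), compared with 8 of 25 ligands (3 higher and 5 lower). Over all features so detected, 34.4% did not overlap. This contrast between receptors and ligands is a description and was not tested.

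Robo2, a Slit receptor of developing axons, rose in SMC lines. Its signal was -4.14, -4.34 and -3.52 in the SMC lines of pairs 1 to 3, against -8.65, -8.22 and -7.99 in the non-SMC lines. All SMC lines detected it, weakly, and no non-SMC line did. For this probe and processing, the mean of the SMC lines was at least 5.13-fold above the lowest detected signals of the non-SMC arrays. The fitted difference was 4.29 ± 0.31 (adjusted p = 0.0154). A second Robo2 probe differed by 2.48 and was likewise detected only in SMC lines. On the shared slide alone the difference was 3.86 (limma adjusted p = 0.018). With another background correction (normexp with an offset of 50), which compresses low signals, it was 0.57 and did not pass (adjusted p = 0.197).

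Robo1, the broadly expressed paralogue of Robo2, had signals of 2.27, 2.25 and 2.59 in SMC lines, against -1.26, 0.93 and -0.70 in non-SMC lines. The SMC lines were nearly level and lay above every non-SMC line, yet the difference of 2.71 ± 0.56 did not pass (adjusted p = 0.107). The non-SMC line of pair 2 lay closest to the SMC lines. The remaining Robo genes were not tested. Robo4, the endothelial member, was detected in no line, and Robo3, which modifies the response to Slits at the midline, gave its highest signal, -2.66, in the non-SMC line of pair 2.

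None of the 3 Slit ligands passed, and the differences of Slit2 and Slit3 were negative. Slit2 had signals of -2.45, -8.25 and 1.67 in SMC lines and 2.17, 0.83 and 3.07 in non-SMC lines. It was undetected in the SMC line of pair 2 but above one non-SMC line in that of pair 3, so the groups overlapped and the difference of -5.04 ± 1.59 did not pass (adjusted p = 0.158). Slit3 was -8.63, -5.57 and -8.45 in SMC lines, where only the line of pair 2 detected it, and 2.22, -3.61 and -3.10 in non-SMC lines. These groups did not overlap, but the non-SMC line of pair 1 stood far above its group, and the difference of -6.05 ± 1.84 did not pass (adjusted p = 0.152). Slit1, the Slit most confined to the nervous system, had group means of -1.97 ± 0.86 in SMC lines and -2.50 ± 0.29 in non-SMC lines (SD, n = 3), which overlapped (0.53 ± 0.53, adjusted p = 0.559).

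Upstream sequence is shown for the called genes, Robo2 and Ephb4, each with a related gene that did not pass. Robo1 lay above in every SMC line, as Robo2 did. Efnb2, the ligand of Ephb4, lay below in every SMC line, as Ephb4 did. Each run is the 250 bases before a RefSeq transcription start (GRCm38.p6), read 5' to 3' on the gene's strand. Robo2 has 3 such starts, and the one with a match is given. Capitals mark matches, on either strand, to TGANTCA (the AP-1 site), GGAATG (TEAD), CACCTG (the E-box of ZEB and SNAI factors) or CAGCTG (an E-box of proneural factors). No matches overlapped in these runs.
Robo2 (chr16:74411826-74412075, minus strand): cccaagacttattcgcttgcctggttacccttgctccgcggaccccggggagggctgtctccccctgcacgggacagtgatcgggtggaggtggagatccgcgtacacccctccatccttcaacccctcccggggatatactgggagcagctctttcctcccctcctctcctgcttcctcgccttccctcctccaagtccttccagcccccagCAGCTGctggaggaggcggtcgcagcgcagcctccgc
Robo1 (chr16:72662899-72663148, plus strand): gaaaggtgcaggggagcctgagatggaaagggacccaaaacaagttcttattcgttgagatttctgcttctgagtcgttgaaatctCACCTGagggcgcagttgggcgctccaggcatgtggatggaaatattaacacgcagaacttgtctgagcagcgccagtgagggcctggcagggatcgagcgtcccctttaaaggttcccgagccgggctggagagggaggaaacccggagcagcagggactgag
Ephb4 (chr5:137349859-137350108, plus strand): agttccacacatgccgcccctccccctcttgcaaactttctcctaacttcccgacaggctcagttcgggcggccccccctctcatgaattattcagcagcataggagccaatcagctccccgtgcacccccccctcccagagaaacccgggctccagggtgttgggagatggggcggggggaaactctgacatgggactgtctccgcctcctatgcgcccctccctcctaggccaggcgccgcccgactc
Efnb2 (chr8:8661243-8661492, minus strand): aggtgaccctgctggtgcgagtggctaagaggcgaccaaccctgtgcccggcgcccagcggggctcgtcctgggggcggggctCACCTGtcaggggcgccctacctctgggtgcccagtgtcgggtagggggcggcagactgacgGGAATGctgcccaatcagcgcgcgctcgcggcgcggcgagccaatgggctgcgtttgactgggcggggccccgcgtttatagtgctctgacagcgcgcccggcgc

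Of these runs, Robo2 held CAGCTG, Robo1 held CACCTG, Efnb2 held CACCTG and GGAATG, and Ephb4 held no match. RefSeq promoters were matched for 49 of the 58 tested members, 64 promoters in all. CAGCTG stood in 10.9% of them and in 13% of all 32851 promoters; it was in 4 of the 19 promoters of members whose SMC lines all lay above, and in 1 of the 16 of members whose SMC lines all lay below. GGAATG stood in 10.9% of member promoters against 12.6% of all, in 0 of the 19 and in 3 of the 16. For CACCTG the shares were 12.5% and 17.2% (3 of 19 and 3 of 16), and for TGANTCA 4.69% and 6.75% (1 of 19 and 0 of 16). A match is a description of letters in this window and not a binding site.

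Ephb4 fell, and its ligand Efnb2 was lower in every SMC line. Ephb4 and ephrin-B2 are the receptor and ligand that mark veins and arteries and are both carried by many carcinomas. Ephb4 was -5.26, -5.59 and -6.63 in the SMC lines, the last of them undetected, against 0.60, -0.67 and 0.79 in the non-SMC lines. These SMC signals were near the lowest detected ones of their arrays, -6.39, -6.19 and -6.31. The groups lay far apart, and the difference was -6.07 ± 0.58 (adjusted p = 0.0258), or -5.96 with the dim signal set to the lowest detectable one. On the shared slide alone it was -5.48 (limma adjusted p = 0.0382). With slide (shared or not) added to the fit as a further block, the call was lost (limma adjusted p = 0.0523), while Epha2 passed (adjusted p = 0.0408). The layout of slides over the pairs fixes the difference at -6.07 in that fit, so its value tells nothing about the slide. Efnb2 was -0.00, -0.37 and -1.93 in SMC lines, against 3.08, 2.89 and 3.12 in non-SMC lines. The non-SMC lines were nearly level, no SMC line reached them, and the difference of -3.80 ± 0.52 narrowly missed the threshold (adjusted p = 0.0525). It passed without the pair in the fit (adjusted p = 0.0162) and on the shared slide alone (-3.19, adjusted p = 0.0287), and a second probe differed by -4.13. The 12 endothelial markers summed to 4.17 to 21.5 in SMC lines and 4 to 15.3 in non-SMC lines, and their part in these values was not tested. The similar sums rest on different genes. The largest part came from Vwf in the SMC lines of pairs 1 and 2 and in the non-SMC line of pair 2. In the SMC line of pair 3 it came from Egfl7, and in the non-SMC lines of pairs 1 and 3 from Flt1. Pecam1, Cdh5, Cldn5, Emcn and Tie1 were detected in no line, Tek in 2 SMC lines only, and Vwf in all 6 lines. Of the 5 tested, 0 were higher and 1 lower, Flt1 (adjusted p = 0.0116), which was detected in 1 of 3 SMC lines. Vwf (difference 3.27, adjusted p = 0.378), Kdr (-1.79, 0.185), Esam (-0.60, 0.555) and Egfl7 (-0.14, 0.91) did not pass.

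Leaving out pair 1 or pair 3 lost the calls of both genes that passed. For Robo2 the adjusted p was 0.0712 without pair 1 and 0.1 without pair 3, at differences of 4.17 and 4.20. For Ephb4 it was 0.115 and 0.0804, at -6.17 and -5.39. Without pair 1, Epha2 was the only member that passed (-7.32, limma adjusted p = 0.0489). Without pair 3 limma called 0 features in either direction, although 924 higher and 1743 lower features had an unadjusted p under 0.05.

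The other Eph receptors differed in both directions, and none passed. Epha2, a receptor kinase of epithelia that is abundant in many carcinomas, was -0.80, -3.31 and -3.58 in SMC lines and 2.88, 3.54 and 4.21 in non-SMC lines. This gap, -6.11 ± 0.91, was as wide as that of Ephb4 but more uneven between pairs and did not pass (adjusted p = 0.0614); it passed without the pair in the fit (adjusted p = 0.0136). Epha5, a receptor of brain and retina, lay the opposite way, at -0.67, -2.09 and 1.86 in SMC lines and -8.79, -2.47 and -5.07 in non-SMC lines. In pair 2 its lines differed by only 0.37, and the difference of 5.14 ± 1.71 did not pass (adjusted p = 0.168). Epha8, also a receptor of the developing brain, was detected in all SMC lines (-4.15, -5.54 and -0.88) and in no non-SMC line. Its mean in SMC lines was at least 7.11-fold above the lowest detected signals of the non-SMC arrays, without passing (adjusted p = 0.11). This bound is one of means. The SMC line of pair 2 lay near the lowest detected signal of its partner's array, -6.32. Under other settings the difference ran from 1.12 to 5.97, so the bound holds for this processing only.

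Ephb2 and Ephb3, which keep cells apart at tissue boundaries and guide axons, were higher in every SMC line by small margins. Ephb2 was 0.70, 2.07 and 1.26 in SMC lines, against -0.51, -0.37 and -0.36 in non-SMC lines (1.76 ± 0.37, adjusted p = 0.108). Ephb3 averaged 3.04 ± 0.29 in SMC lines and 2.04 ± 0.18 in non-SMC lines (SD, n = 3; adjusted p = 0.146). Neither passed. Ephb6, whose kinase domain is inactive, was about level (-0.16 ± 0.28, adjusted p = 0.742). Epha7 lay below in every SMC line (-2.79 ± 1.41, adjusted p = 0.283), undetected in that of pair 2 at -7.28, and Epha1 and Epha4 overlapped between the groups (adjusted p = 0.346 and 0.242). Of the Eph receptors not tested, Epha6 was detected in no line, Epha10 only in the SMC line of pair 3, Ephb1 in 1 line of each group, and Epha3 in 2 lines of each group.

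None of 7 ephrins passed, and 3 lay below in every SMC line, as did 15.4% of all features. Efna1, the usual ligand of Epha2, was -5.11, -3.64 and -4.53 in SMC lines and -0.36, -1.90 and -0.66 in non-SMC lines (-3.45 ± 0.68, adjusted p = 0.1). Efna4 averaged -2.71 ± 0.76 in SMC lines and -0.34 ± 0.58 in non-SMC lines (SD, n = 3; difference -2.37 ± 0.46, adjusted p = 0.0963). Efna2 had the most positive difference of the family, 1.38 ± 0.36 (adjusted p = 0.13), with overlapping groups. Efna5, Efnb1 and Efnb3 also overlapped, with differences of 0.46, -1.03 and 0.92.

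**Figure D2:**
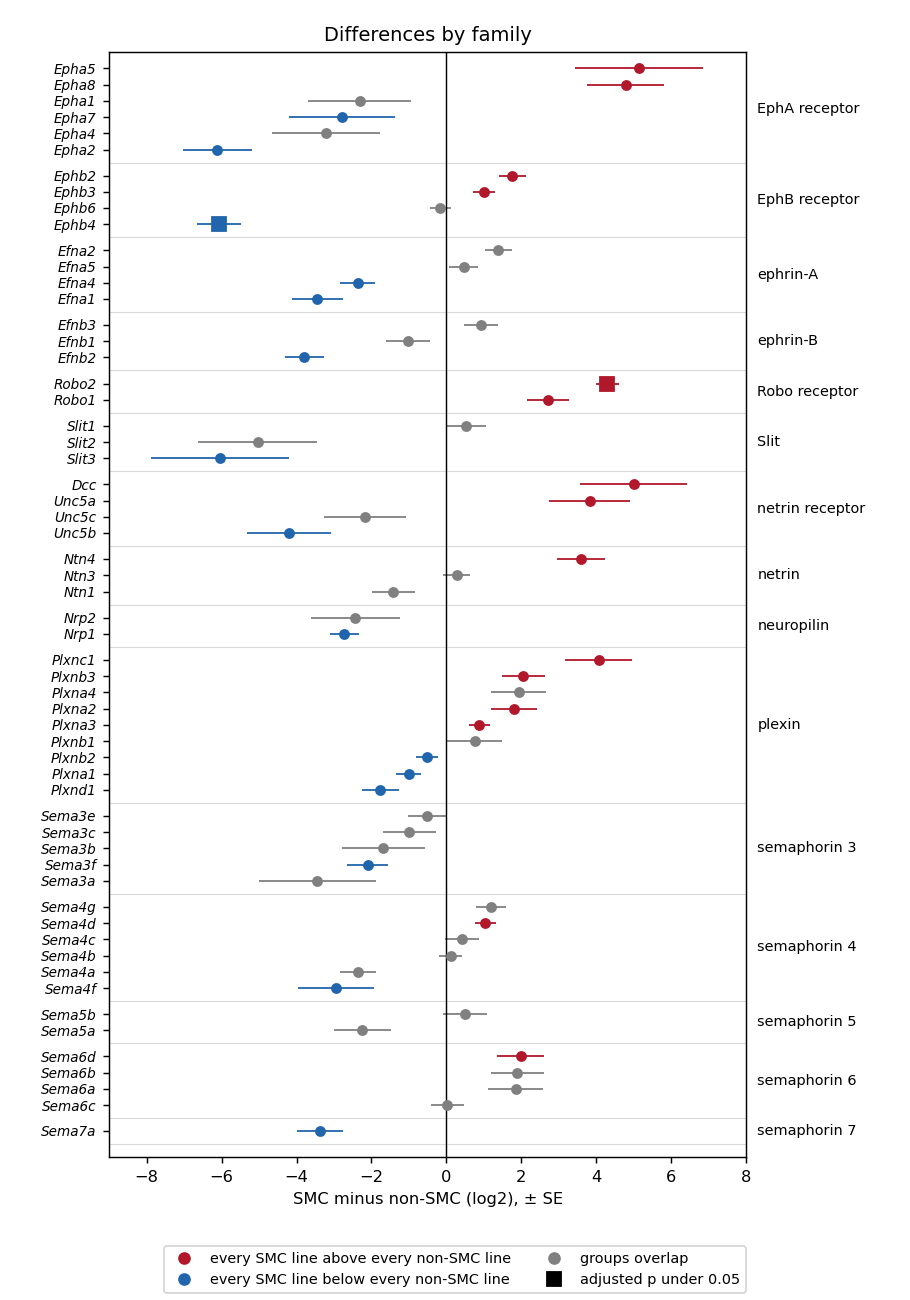
Difference between SMC and non-SMC lines (log2, horizontal axis) with its SE for each tested gene, grouped by family; colour tells whether the 3 lines of each group overlap, and squares mark an adjusted p under 0.05. Robo2 (4.29) and Ephb4 (-6.07) are the squares; Epha2 (-6.11) and Slit3 (-6.05) lie as far left as Ephb4 with wider errors.

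None of the 4 tested netrin receptors passed, and their differences ran both ways. Dcc, the receptor for attraction to netrin-1, was detected in every SMC line (-2.20, -4.49 and -0.30) and, of the non-SMC lines, only in that of pair 2, at -5.56, against -8.53 and -7.91 in the others. The groups did not overlap, but pair 2 differed by 1.07 only, and the difference of 5.00 ± 1.43 did not pass (adjusted p = 0.142). Unc5a, a repulsive netrin receptor largely restricted to neurons, was 2.65, 3.63 and 3.86 in SMC lines and -0.24, 1.78 and -2.86 in non-SMC lines, again without overlap (3.82 ± 1.07, adjusted p = 0.139). Unc5b, the Unc5 receptor of blood vessels, was lower in every SMC line: -1.25, -0.61 and -5.14, against 1.71, 1.72 and 2.16 in non-SMC lines (-4.20 ± 1.13, adjusted p = 0.134). The non-SMC lines agreed within 0.26 (SD), whereas the SMC line of pair 3 lay far below its group. Unc5c overlapped (-2.18 ± 1.10, adjusted p = 0.284). Unc5d was detected in no line, and Unc5cl, an Unc5-like gene that is no netrin receptor and entered through its name, was brightest in the SMC line of pair 2, at -1.75. Neo1, a netrin receptor related to Dcc but outside the member names, differed less: 1.71, 1.87 and 1.95 in SMC lines and 2.42, 2.80 and 2.76 in non-SMC lines (-0.82 ± 0.28, adjusted p = 0.174). A second Neo1 probe gave 0.32, so its sign depends on the probe.

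Among the netrins, Ntn4, a laminin-related netrin of basement membranes, was higher in every SMC line. Its signals were -0.17, 0.54 and -1.06 in SMC lines, against -4.43, -1.38 and -5.62 in non-SMC lines (3.58 ± 0.64, adjusted p = 0.0864). Ntn1, the classical attractant, overlapped (-1.42 ± 0.57, adjusted p = 0.21), as did Ntn3 (0.27 ± 0.36, adjusted p = 0.663). Ntn5 was detected only in the SMC line of pair 3 and was not tested.

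**Figure D3:**
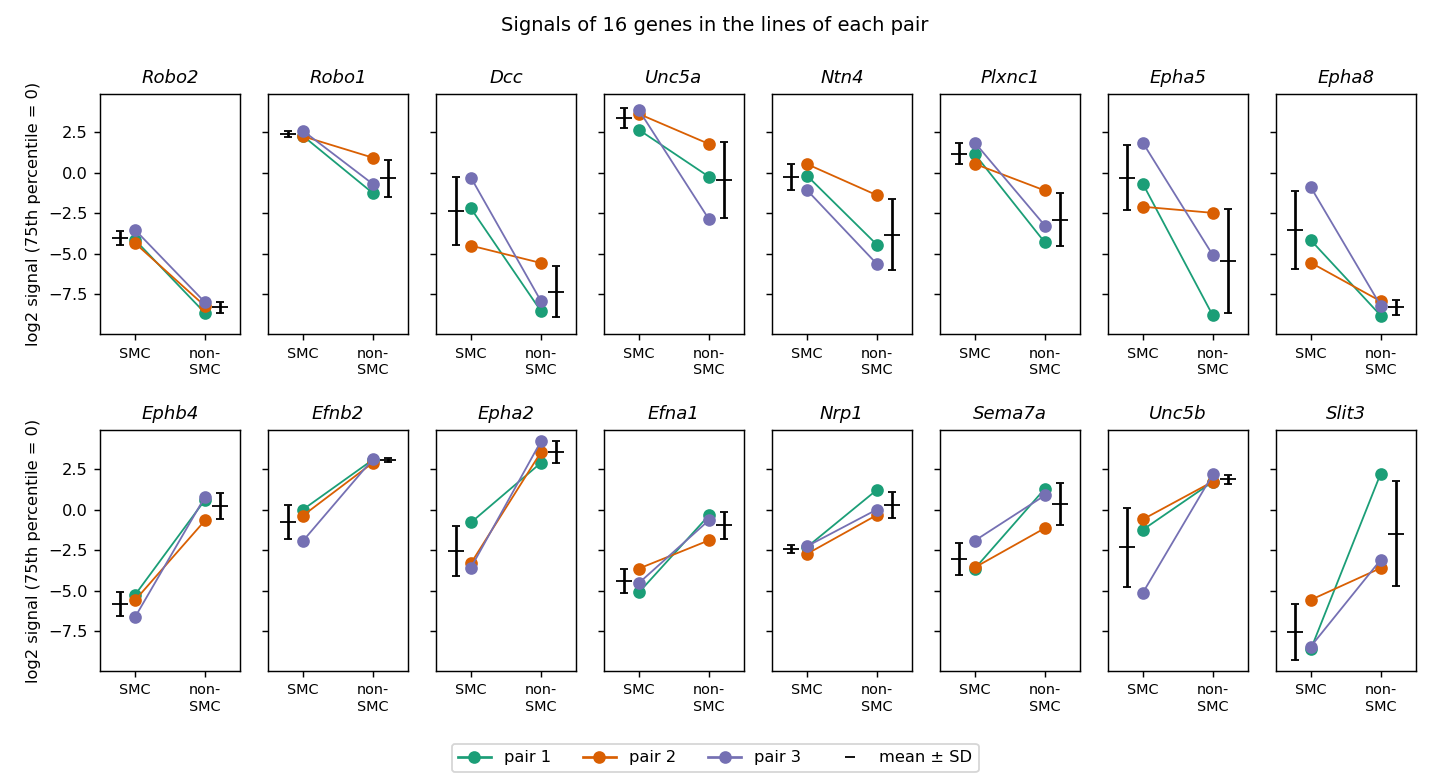
Signals of 16 genes in SMC lines (left) and non-SMC lines (right) of each pair, with the mean and SD of each group in black; the vertical axis is log2 signal with the array's 75th percentile at 0. In the upper row the SMC lines lie above, and the line of pair 2 often slopes least, as for Dcc (-4.49 in SMC, -5.56 in non-SMC); in the lower row every SMC line lies below.

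Neuropilins, the ligand-binding partners of plexins, were both lower on average. Nrp1, which also binds VEGF, was -2.32, -2.74 and -2.27 in SMC lines and 1.21, -0.34 and 0.00 in non-SMC lines. The groups did not overlap, and the difference of -2.73 ± 0.39 did not pass (adjusted p = 0.0573, or 0.0277 without the pair in the fit); its second probe differed by -3.04. Nrp2 averaged 1.01 ± 1.77 in SMC lines and 3.44 ± 1.20 in non-SMC lines (SD, n = 3), with slight overlap (difference -2.43 ± 1.18, adjusted p = 0.269).

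All 9 plexins were tested and none passed; 4 lay above and 3 below in every SMC line, as did 22.8% and 15.4% of all features. Plxnc1, the receptor of Sema7a, had the widest gap, at 1.15, 0.55 and 1.86 in SMC lines and -4.29, -1.09 and -3.25 in non-SMC lines (4.06 ± 0.90, adjusted p = 0.111). Plxnd1, a plexin of blood vessels that binds Sema3e, had the most negative difference: -1.70, -1.67 and -0.01 in SMC lines and 1.11, 0.01 and 0.77 in non-SMC lines (-1.76 ± 0.49, adjusted p = 0.14). Class A plexins, the partners of neuropilins, did not go one way. By their brightest probes, Plxna2 and Plxna3 were higher in every SMC line (1.81 and 0.88). Plxna1 was lower in every SMC line (-1.01), and Plxna4 overlapped (1.93). Second probes of Plxna3 (0.58) and Plxna1 (-0.29) overlapped between the groups. Plxna2 was nearly constant in SMC lines, at 2.93 ± 0.06, against 1.12 ± 1.30 in non-SMC lines (SD, n = 3). In class B, Plxnb3 was higher (2.05 ± 0.58) and Plxnb2 slightly lower (-0.52 ± 0.29) in every SMC line, and Plxnb1, a Sema4d receptor, overlapped.

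Secreted class 3 semaphorins, which repel axons and restrain vessels, had negative differences for all 5 genes tested, and none passed. By the brightest probes, Sema3f, which binds Nrp2, was the only one without overlap. It was -1.23, -0.57 and -1.19 in SMC lines, against 0.08, 0.97 and 2.26 in non-SMC lines (-2.10 ± 0.55, adjusted p = 0.131). A second Sema3f probe differed by -0.98 and overlapped between the groups. Sema3a, the founding axon repellent and a ligand of Nrp1, was undetected by its brightest probe in the SMC lines of pairs 1 and 2 (-8.51 and -6.18). At -1.12, the SMC line of pair 3 lay within the range of the non-SMC lines (-2.68, -0.75 and -2.03). Its difference was -3.45 ± 1.56 (adjusted p = 0.246). Sema3b and Sema3c overlapped (-1.68 and -0.99). For Sema3e the brightest probe gave -0.51 and another 0.50, so its sign depends on the probe. Sema3d, detected in 2 lines of each group, was not tested.

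The membrane-bound class 4 semaphorins were mixed. Sema4d, a plexin-B1 ligand, was -1.56, -1.44 and -1.32 in SMC lines and -2.69, -2.29 and -2.44 in non-SMC lines. This small gap was even in all pairs (1.04 ± 0.28, adjusted p = 0.135). Sema4g had the most positive difference, 1.18 ± 0.40 (adjusted p = 0.174), with overlap. Sema4f was lower in every SMC line, at -7.17, -3.36 and -5.13 (the first undetected), against -2.58, -3.18 and -1.05 in non-SMC lines (-2.95 ± 1.02, adjusted p = 0.176). Sema4a overlapped (-2.36 ± 0.49, adjusted p = 0.107), and Sema4b and Sema4c differed by 0.11 and 0.41.

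Class 5 semaphorins carry thrombospondin repeats and can attract or repel. Sema5a was -2.15, -3.79 and -5.11 in SMC lines and -1.16, -2.26 and -0.88 in non-SMC lines, nearly without overlap (-2.25 ± 0.76, adjusted p = 0.171). The probes of Sema5b disagreed in size. The brightest gave 0.50 ± 0.59 (adjusted p = 0.62), with overlap. The other 2 probes gave 5.00 and 5.43, were detected in all SMC lines and, of the non-SMC lines, only in that of pair 2, and did not overlap between groups. With the mean of its probes, Sema5b differed by 3.64 (adjusted p = 0.0786). Which transcripts the probes bind was not examined.

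Class 6 semaphorins, transmembrane partners of class A plexins, had positive differences for all 4 genes, and none passed. Sema6d was 0.83, -0.43 and 2.05 in SMC lines, against -1.78, -0.81 and -0.89 in non-SMC lines, without overlap (1.98 ± 0.63, adjusted p = 0.159). Sema6a and Sema6b differed by 1.85 and 1.89 with overlap, and Sema6c by 0.02, which was negative under several other settings. Sema7a, the membrane-anchored semaphorin with roles in immune cells and axon growth, was lower in every SMC line: -3.64, -3.57 and -1.92, against 1.28, -1.15 and 0.87 in non-SMC lines (-3.38 ± 0.61, adjusted p = 0.0866).

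Known ligand-receptor pairs were set side by side to ask whether the genes of a pair shifted together. The list of pairs joins a ligand to only some of its possible receptors (Efna4 only to Epha5, for instance), so the counts below depend on it. In 41 of 46 listed pairs both genes were tested, and the pairs share genes and are not independent. Of all these genes only Robo2 and Ephb4 passed the test, so the counts describe where the lines lay. In 33 of the 41 pairs the groups overlapped for at least 1 of the genes. In 2 pairs both were lower in every SMC line, Efnb2 with Ephb4 and Efna1 with Epha2. In no pair were both higher. In 4 pairs the ligand was lower and the receptor higher: Slit3 with Robo1, Sema3f with Plxna3, Sema7a with Plxnc1, and Efna4 with Epha5. In 2 pairs the ligand was higher and the receptor lower, Ntn4 with Unc5b and Sema6d with Plxna1. All these states are those of the brightest probe. Second probes of Sema3f, Plxna3 and Plxna1 overlapped between the groups, so the pairs with these genes depend on the probe.

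**Figure D4:**
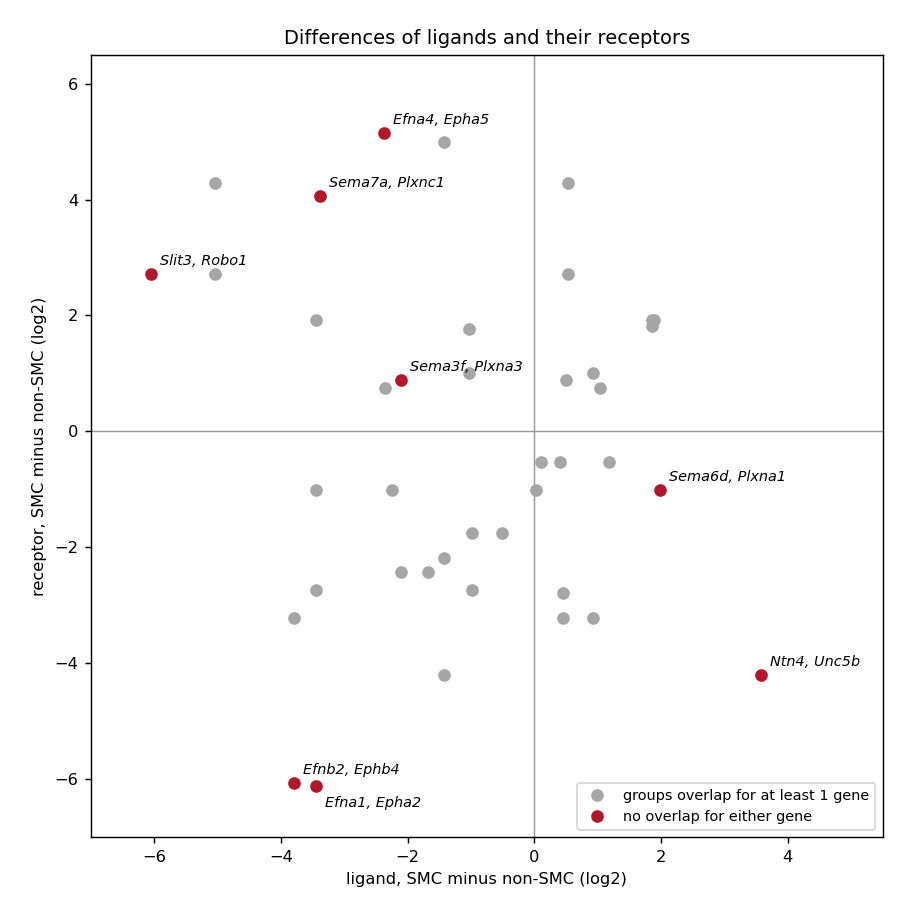
Difference (SMC minus non-SMC, log2) of the ligand on the horizontal and of its receptor on the vertical axis for 41 ligand-receptor pairs; red points, with names, are the 8 pairs in which neither gene overlaps between groups. Of these, 2 lie at lower left (both lower in SMC lines), 4 at upper left (receptor higher, ligand lower), 2 at lower right, and none at upper right.

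The non-SMC line of pair 2 lay nearest to the SMC lines for many of the genes above. In pair 2, 3 of 58 members were more than 2 higher (log2) in the SMC line, against 12 in each of pairs 1 and 3. Over all features these shares were 1.57% in pair 2 and 13.5% and 11.9% in pairs 1 and 3. Decreases of the same size were seen for 16, 12 and 18 members in pairs 1 to 3 (27.6%, 20.7% and 31.0%), against 9.98%, 8.86% and 10.8% of all features. Without pair 2, 5 members were higher (2.64% of all features) and 3 lower (2.5%). The higher ones were Dcc, Epha5, Ntn4, Plxnc1 and Robo2, and the lower ones Efna1, Ephb4 and Sema4f. Other fits moved these counts. Without the pair in the fit, 1 member was higher and 5 were lower (1.38% and 4.91% of all features). With the non-SMC line of pair 2 also left out, 6 were higher and 7 lower (7.85% and 5.78%). Median scaling gave 5 and 4 (1.2% and 4.91%), and normexp gave 1 and 3 (0.272% and 2.95%), where the higher one was Ntn4. Among probes detected on all 6 arrays, limma called 0 members in either direction (0.0245% and 0.825% of those features), as Robo2 and Ephb4 were not among them. Pair 2 was also the only one with both lines on 1 slide and the only male pair, and these cannot be told apart.

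Other genes of the pathways were compared in lists of partners and of intracellular transducers. Of 31 tested partners and co-receptors, 0 were higher and 1 was lower in SMC lines (0.156% and 3.03% of all features), and 30 did not pass. In every SMC line 4 lay above and 6 below, where 22.8% and 15.4% of all features did. The 1 was Plxdc2, a plexin-domain protein that is no plexin, which was at least 211-fold lower and undetected in every SMC line (adjusted p = 0.00704). The list's median difference was -0.22. Of 58 tested transducers, 0 were higher and 3 lower, with a median of 0.04; 12 lay above and 15 below in every SMC line, against the same shares of all features. Dock1, an activator of Rac downstream of netrin and integrin signals, was undetected in every SMC line and at least 249-fold lower (adjusted p = 0.00704). Rnd3, which acts on the actin cytoskeleton, differed by -8.78 ± 1.02 (adjusted p = 0.0379; detected in 1 of 3 SMC lines). Rras, a small GTPase on which plexins act, was -1.87, -0.19 and 0.97 in SMC lines and 2.43, 2.83 and 3.91 in non-SMC lines (-3.42 ± 0.41, adjusted p = 0.0412). The Slit-Robo GTPase activators Srgap1, Srgap2 and Srgap3 overlapped between groups, with differences of 0.43, 0.21 and 0.92 by their brightest probes. Other probes of Srgap1 gave -0.26 to 0.15, and those of Srgap2 gave -1.81 and -0.16. The signs of both thus depend on the probe, and for Srgap2 the size does too.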

How the data were processed

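RNA of 3 SMC and 3 non-SMC mouse lung tumour lines was hybridised to Agilent single-colour arrays. Per the file headers, the authors' scans were turned into spot intensities by Agilent's Feature Extraction software. The deposited processed intensity is background-subtracted within each array and not normalized between arrays. The deposited series table holds log2 values with equal medians of 5.07 in all columns and followed their own arrays' processed signals on that scale (Pearson's r at least 0.996). How they were normalized was not stated.

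Control spots (1639) and outlier spots were left out, spots of a probe were averaged, and each array's 75th percentile (485 to 696 intensity units) was subtracted on the log2 scale. Probes detected on all arrays of at least 1 group were kept. Symbols came from matching accessions to RefSeq (GRCm38.p6): 27479 of 41174 probes matched, and the member rule was applied to these symbols because the files hold no gene name column. The brightest probe stood for a gene; 23 tested members had several kept probes, of which only those of Sema3e differed in sign. The design names mean spot signals for normexp; the files' median signals were used.

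Differences were tested with limma 3.58.1 (R 4.3.3), pair and group in the fit, two-sided, with Benjamini-Hochberg adjustment over 19848 features, and the fit was tested on simulated data. The labels give the pairs; deviations from group means correlated at -0.01, 0.14 and -0.00 within pairs 1 to 3. Bounds written "at least" replace each dim array's value by its lowest detected signal where that is higher. They compare group means of the brightest probe under the processing above, and other probes or settings can give less. The number of arrays limits the precision.

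Genes named with values were every member past the threshold, the largest difference in each direction per family, and both genes of a listed pair where either passed; further members were described after their values were seen. Of the other lists, up to 4 genes past the threshold were named; Neo1, the Srgap genes and the tested endothelial markers were chosen after their values were seen. The members and lists were chosen with earlier results of these data known. Alternatives were other normalizations, background correction, the deposited values, filters, ways to combine probes, the floor for dim signals, the pairing, the slide, and leaving out pairs or lines.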

Additional observations from a re-analysis of the deposited data

Results flagged for a closer look

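In 3 members the line pair labelled male moved against both female pairs; these differences between the sexes were not tested, and with 1 male pair, sex, slide and pair cannot be told apart. For Epha1 the SMC minus non-SMC difference was 0.85 in pair 2 and -1.98 and -5.81 in pairs 1 and 3. For Efna5 it was -0.19 in pair 2 and 0.39 and 1.17 in pairs 1 and 3. Sema3c gave 0.41 in pair 2 and -0.64 and -2.75 in pairs 1 and 3. None of the 3 passed the test between the groups.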

How the results depend on the processing

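The counts over all features were 31 higher and 602 lower, and over members 1 and 1. With median scaling they were 239 and 974 over all features, and 5 and 4 over members. Normexp gave 54 higher and 585 lower over all features, and 3 members lower. Without a filter 7 and 383 features were called, and with probes detected on all 6 arrays 4 and 135, with 0 members in either direction, since Robo2 and Ephb4 were then not tested. Counting each probe as a feature gave 54 higher. No replicate block (the pair left out of the fit) gave 274 and 975, with 5 members lower: Ephb4, Epha2, Efnb2, Nrp1 and Efna1. With the slide block 9 features were higher, and on the shared slide alone 20. The members called lower numbered 2 with the deposited values, with the mean of a gene's probes, with each probe a feature, with dim signals at the floor and on the shared slide alone. In the same order, 565, 617, 857, 564 and 612 of all features were lower (of 26684 with each probe a feature, otherwise of 19848). On the shared slide, with 2 lines a group, 18 members lay above in every SMC line (31.0%, against 38.2% of all features). There, 25 lay below (43.1%, against 24.9%), and the members' median difference was -0.40.

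Leaving out a pair or a line gave 0 to 1559 features higher and 0 to 1147 lower. Members called numbered 0 to 6 higher and 0 to 7 lower, and the members' median was -0.31 to 0.10. In every SMC line 16 to 20 members lay above (27.6% to 34.5%, against 25.1% to 38.2% of all features). Below lay 15 to 22 (25.9% to 37.9%, against 16.8% to 24.3%). At an unadjusted p under 0.05, 1490 and 2013 features were higher and lower without pair 1. The calls without non-SMC replicate 2 (and without the pairing) were the most, at 1559 and 1147 features and 6 and 7 members. Without pair 1 there were 0 and 207 features, and without pair 3 there were 0 and 0.

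Over all 21 settings, Robo2 was positive (0.57 to 4.49) and Ephb4 negative (-6.64 to -3.52) wherever tested, each past the threshold in 17 of 20. Small differences changed sign. On the shared slide alone Efna5 was -0.94, Ephb6 0.42, Sema4g -0.29, Sema6b -0.11 and Sema6c -0.18. Sema6c was -0.01 with quantile normalization and with the deposited values, and -0.07 with median scaling, and Sema4b was -0.03 with normexp. When pairs or lines were left out, the ranges were -0.25 to 1.19 for Efna5, -0.59 to 0.19 for Ephb6, -0.07 to 0.46 for Ntn3, -0.13 to 1.52 for Plxnb1, -0.02 to 0.31 for Sema4b, -0.12 to 0.73 for Sema4c, -0.01 to 1.22 for Sema5b, -0.45 to 0.51 for Sema6c and -0.12 to 0.87 for Slit1. Beyond what a setting's own construction fixes, the cause was not tested. Signals near background limit Robo2, Epha8 and Dcc, and also Ephb4 through its SMC lines.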
